A study of Mus musculus with 28 samples.

Results

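The effect of UNC0638 on gene expression was compared between a reprogramming medium without and one with 3 further compounds (3C), in 12 RNA-seq libraries of mouse embryonic fibroblasts undergoing reprogramming. These are 12 of the 28 samples of the series, and the other 16 (10 profiles of H3K9me2 and 6 libraries of pluripotent cells) were not used here. All fibroblasts were heterozygous for Rosa26-rtTA and for Oct4-GFP. They carried in addition either 1 copy of a doxycycline-inducible OKSM allele (Oct4, Klf4, Sox2 and Myc) or a homozygous inducible OKS allele, which lacks Myc; which allele each library carried was not given. The fibroblasts came from midgestation embryos and were reprogrammed in embryonic stem cell medium on irradiated feeder cells; whether feeder cells were removed before RNA extraction was not given. All 4 groups received doxycycline at 1 µg/ml. The DOX group received nothing more, and DOX UNC received UNC0638 at 1 µM. In DOX 3C, cells received ascorbic acid (50 µg/ml), a TGF-β receptor inhibitor (TGF-b RI Kinase Inhibitor II) used at 250 nM, and CHIR99021 at 3 µM, and DOX 3C UNC received all of these and UNC0638. Each group had 3 libraries. The time of RNA collection was not given for these libraries, nor whether replicates were separate cultures, so p-values measure the spread between these libraries, which may be technical.

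UNC0638 inhibits G9a and GLP, the enzymes encoded by Ehmt2 and Ehmt1 that place mono- and dimethylation on lysine 9 of histone H3, a mark of silent chromatin. Of the 3C compounds, ascorbic acid is a cofactor of the dioxygenases that remove histone and DNA methylation, CHIR99021 inhibits GSK3 and so activates Wnt signalling, and the kinase inhibitor blocks signalling from TGF-β receptors to SMAD proteins. During reprogramming, fibroblasts turn down mesenchymal genes for matrix and contractile proteins and later turn on epithelial and pluripotency genes. TGF-β maintains the mesenchymal programme, and its receptor inhibitors are used to hasten its loss.

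The quantity described is the interaction, that is, the log2 change with UNC0638 in 3C medium minus the log2 change with UNC0638 in DOX alone. It was taken for all genes with a value of at least 10 normalised counts in at least 3 of the 12 libraries, 16138 of 54109 in the table. A normalised count is a read count that the authors had divided by 1 factor per library. A gene was called when its adjusted p in limma, over all 16138 genes, was below 0.05. Each change below is on the scale of log2(normalised count + 1), given ± standard error. Interactions above 0 are called higher (a more positive UNC0638 effect with 3C) and those below 0 lower.

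Libraries held 10616764 to 20211641 reads in genes. DOX 3C 1 (12745200 reads, against 20211641 and 19351759 in the other 2 libraries of its group) stood apart by its erythroid genes, whose summed level was 2096 normalised counts against 123.8 to 258.6 in the other 11 libraries; their part in the results was not tested, and results are given without that library below. All 8 defining fibroblast markers were detected, with sums of 192600 to 208300 in DOX, 222000 to 239800 in DOX UNC, 116400 to 129900 in DOX 3C and 156500 to 170200 in DOX 3C UNC. Pluripotency genes were mostly low: 12 of 24 could be tested, Nanog could not, and 4 were at 0 in every library. Fewer cells of a type and less RNA per cell cannot be told apart in these bulk libraries.

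UNC0638 had a different effect in the 2 media for 10 genes. The change was higher with 3C for Xdh, Lgals9, Serpinb9, Gm2115, Rcan2, Slc43a2 and Tgfbr2, and lower for Plch1, Pfkp and Pou5f1. These 10 are 0.062% of the genes tested, with 0.0434% called higher and 0.0186% lower. For 8 of the 10, UNC0638 moved the gene by less than 0.2 on the log2 scale in DOX alone and by at least 0.2 in 3C: 5 of the 7 higher and all 3 lower genes had this form. The genes were selected on the difference between these changes, which favours such forms. The share of all genes under 0.2 in DOX alone was not counted, so these counts are a description. Gm2115 moved up in both media and further in 3C, and Slc43a2 moved down in DOX alone and up in 3C. In 3C medium the UNC0638 libraries of each of the 10 genes lay outside the range of the libraries without it, which was the case for 28.8% of all genes tested (16.1% above and 12.7% below). That share was not counted for UNC0638 in DOX alone or for 3C against no 3C. Such separations are given below as descriptions of each gene. At an unadjusted p below 0.05, 1797 genes (11.1%) differed, 1068 higher (6.62%) and 729 lower (4.52%). Counts in gene lists below at that threshold are to be set beside these shares.

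The same contrast with a block for the replicate number called 413 genes (2.56%), 309 higher (1.91%) and 104 lower (0.644%), and all 10 genes were among them. Blocked counts in gene lists below are to be set beside these shares of all genes. The labels do not say that equal numbers pair libraries, so the unblocked result is the one each gene is judged by, and the blocked result is given beside it. Among the 309 higher genes, 185 (59.9%) moved by less than 0.2 with UNC0638 in DOX alone and by at least 0.2 in 3C. A further 91 (29.4%) moved the same way by at least 0.2 in both media and further in 3C. In opposite directions, by at least 0.2 each, moved 24 (7.77%). Among the 104 lower genes, 76 (73.1%) moved by less than 0.2 in DOX alone and by at least 0.2 in 3C. Another 17 (16.3%) moved in opposite directions by at least 0.2 each. These genes were also selected on the difference, and the forms were not counted over all genes, so they too are a description. Without DOX 3C 1 the unblocked count was 70 (0.436%; 60 higher, 0.374%, and 10 lower, 0.0624%, with all 10 genes included). The blocked count was then 443 (2.76%; 359 higher, 2.24%, and 84 lower, 0.524%), of which 326 were among the 413. Without DOX 2 no gene was called by limma, with 1665 genes at an unadjusted p below 0.05, so the number of calls rests on single libraries in both directions.

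**Figure D1:**
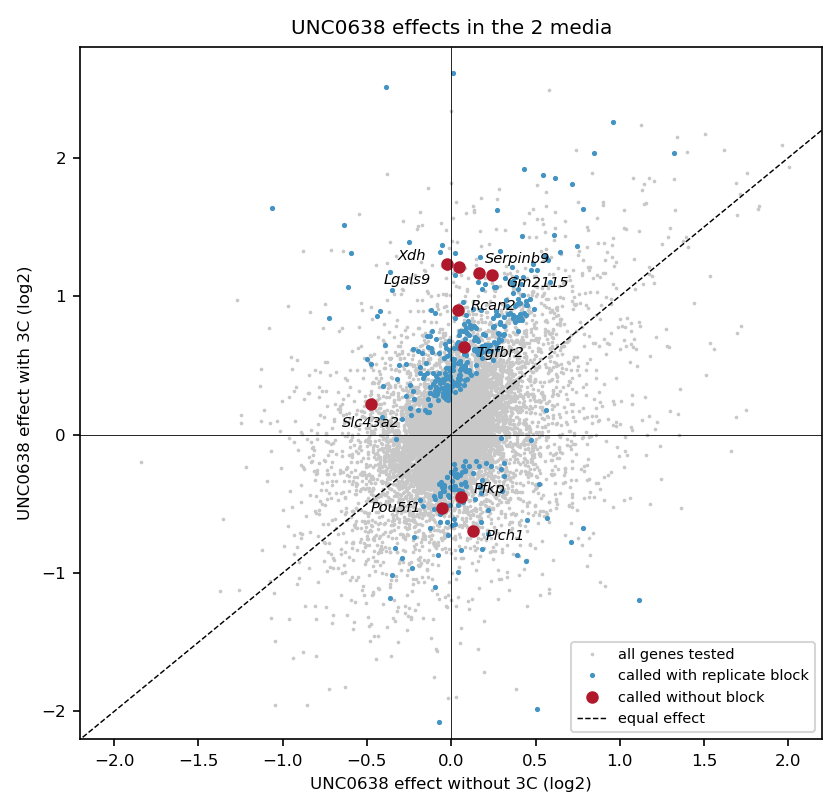
UNC0638 effect in DOX alone (x axis, log2) against the effect in 3C medium (y axis, log2) for the 16138 genes tested, with 3 genes outside the axes. Grey points are all genes, blue points the 413 called with the replicate block and red points the 10 called without it; on the dashed line the effects are equal, and 8 of the red points lie within 0.2 of 0 on the x axis.

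Lgals9 and Serpinb9, both known from immune regulation, rose with UNC0638 in 3C medium, where 3C alone had lowered them (log2 changes of -2.59 and -0.35, in a comparison that called 49.4% of genes). Lgals9 (ENSMUSG00000001123, chr11:78962979-78984924 in mm10, as are all positions here) encodes galectin-9, a secreted sugar-binding protein that acts on T cells. Its libraries held 368, 420.3 and 392 normalised counts in DOX and 367, 418 and 433 in DOX UNC. They held 71.2, 60.0 and 62.5 in DOX 3C and 134, 148 and 170.2 in DOX 3C UNC. The groups without 3C overlapped, all 3C libraries lay below them, and all DOX 3C UNC libraries lay above DOX 3C. The UNC0638 change was 0.04 without and 1.21 ± 0.11 with 3C, an interaction of 1.16 ± 0.16 (adjusted p = 0.0113). The fold seen in DOX alone would have given 66.4 normalised counts in DOX 3C UNC, and the observed geometric mean was 2.26 times that. The call was lost without DOX 2 (adjusted p = 0.0528).

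Serpinb9 (ENSMUSG00000045827, chr13:32997061-33017955) encodes an intracellular inhibitor of granzyme B that protects cells from cytotoxic killing. It was at 152, 148 and 154 normalised counts in DOX and 149, 182 and 180.3 in DOX UNC. It was at 127, 107 and 120.4 in DOX 3C and 289, 252 and 259 in DOX 3C UNC. The DOX 3C UNC libraries were above all 9 others, and the DOX and DOX UNC libraries overlapped. Serpinb9, like Ly6a, Serpinb1a and Gbp7 below, belongs to a family of similar genes, and how reads shared between relatives were counted was not given. The interaction was 1.00 ± 0.16 (adjusted p = 0.0197), from a change of 0.16 without and 1.17 ± 0.11 with 3C. The call was lost without DOX 1 (0.0511), DOX 2 (0.0597), DOX 3C 2 (0.0672) or DOX 3C UNC 3 (0.0601).

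The promoters of these genes are shown because both hold a match to the interferon-stimulated response element, searched on both strands as GAAA, any 2 bases and GAAA again. Each is the 250 bases before the start of a RefSeq transcript (GRCm38.p6, the build also called mm10), 5′ to 3′ on the strand of the gene, with the match in capitals. Lgals9 lies on the minus strand (chr11:78984925-78985174) and Serpinb9 on the plus strand (chr13:33004291-33004540). The Lgals9 window ends where the annotated gene begins, whereas the Serpinb9 window, the only one of that gene in the table, lies inside the annotated gene, before an internal transcript start.
Lgals9: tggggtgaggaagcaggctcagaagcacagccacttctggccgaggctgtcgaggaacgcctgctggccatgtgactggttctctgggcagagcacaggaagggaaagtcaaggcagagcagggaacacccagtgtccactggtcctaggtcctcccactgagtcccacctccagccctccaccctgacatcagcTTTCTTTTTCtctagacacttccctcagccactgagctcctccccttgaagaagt
Serpinb9: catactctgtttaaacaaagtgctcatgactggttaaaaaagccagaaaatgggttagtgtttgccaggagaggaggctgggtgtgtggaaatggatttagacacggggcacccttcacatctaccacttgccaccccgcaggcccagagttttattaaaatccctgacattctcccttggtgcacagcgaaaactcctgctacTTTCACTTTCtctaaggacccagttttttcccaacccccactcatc
Of all 32851 such windows, 2.98% hold this motif. The 9 called genes with a window have 14 windows, of which 2 hold it, those shown. A match is a description of the letters only, and binding was not measured. Of 15 interferon response genes tested, Lgals9 was called higher. Xaf1, an interferon-induced apoptosis factor, was called with the block only, at 38.0, 26.7 and 32.4 normalised counts in DOX 3C and 129, 82.4 and 95.0 in DOX 3C UNC (interaction 1.35 ± 0.35, adjusted p = 0.128, blocked 0.0296). Ddx58, the sensor of viral RNA also called RIG-I, was at 0.45 ± 0.13 (adjusted p = 0.18, blocked 0.0632). The list had 6 members higher and 0 lower at an unadjusted p below 0.05, and its median was 0.31 against 0.00 for all genes. Lgals9 was placed in it with earlier results known, and the other lists below were also written so. A called gene in its own list is therefore not separate evidence.

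**Figure D2:**
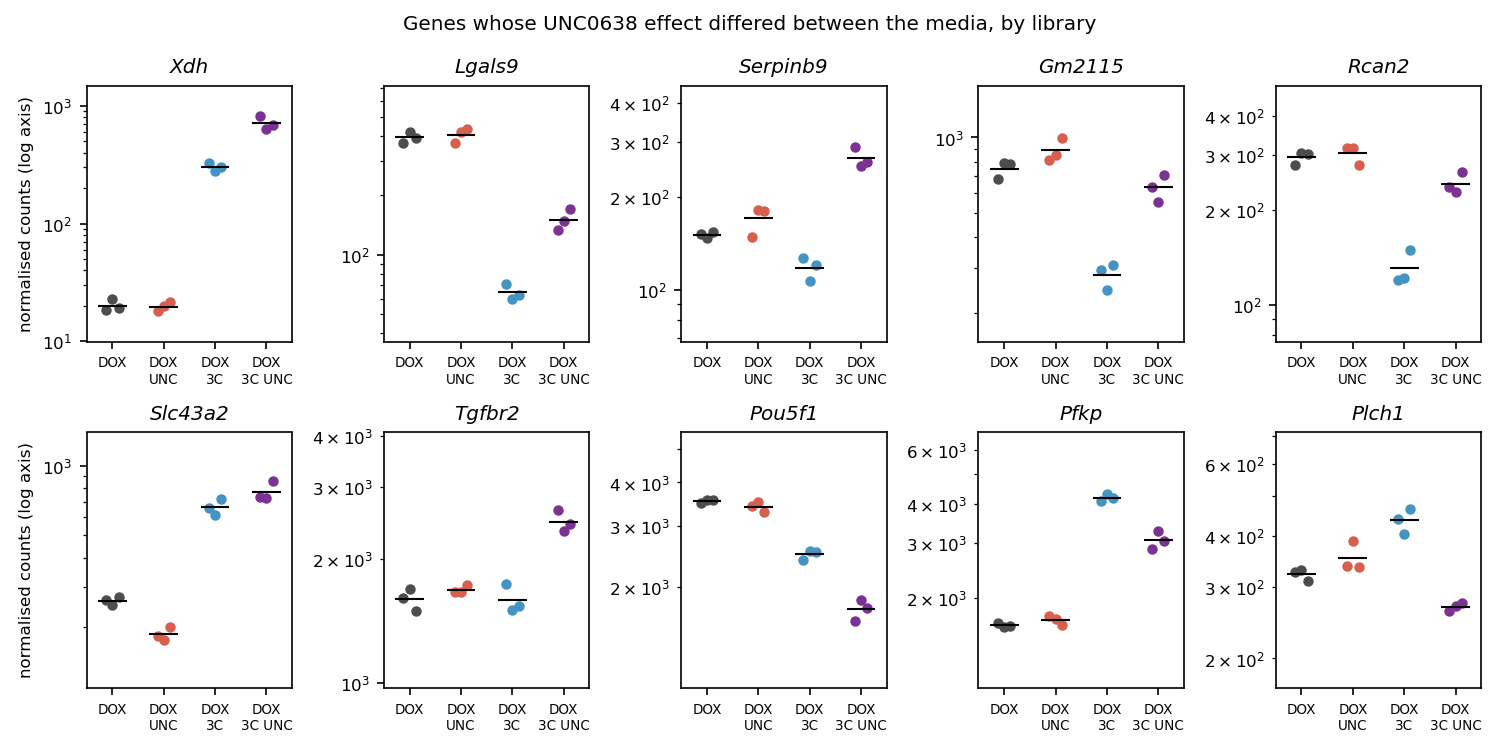
Normalised counts (log axis) of the 10 genes called in the interaction, ordered by the size and sign of the interaction, in the 3 libraries of each of DOX, DOX UNC, DOX 3C and DOX 3C UNC; points are libraries and lines group means. The first 2 groups are close together in most panels, while the last 2 do not overlap in any; Slc43a2 falls from DOX to DOX UNC and lies higher in DOX 3C UNC than in DOX 3C.

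Xdh (ENSMUSG00000024066, chr17:73883895-73950397) encodes xanthine dehydrogenase, which oxidises hypoxanthine and xanthine to uric acid at the end of purine breakdown. Its libraries held 18.39, 22.82 and 19.04 normalised counts in DOX and 17.9, 19.7 and 21.4 in DOX UNC. They held 324, 279 and 302 in DOX 3C and 813, 638 and 688 in DOX 3C UNC. All libraries with 3C were above all without it, and within 3C medium all libraries with UNC0638 were above those lacking it. The UNC0638 change was -0.02 without 3C and 1.23 ± 0.14 with it, an interaction of 1.26 ± 0.20 (adjusted p = 0.0197). Of the called genes Xdh had the largest interaction; edgeR on the recovered reads did not call it (adjusted p = 0.0746), and neither did limma without DOX 2 (0.0597), DOX 3C UNC 3 (0.0601), or number 2 or 3 of DOX 3C (0.0795 and 0.0593). Of 17 enzymes of purine breakdown and reactive oxygen, Xdh was called and 7 were higher and 0 lower at an unadjusted p below 0.05. Aox1, an aldehyde oxidase related to Xdh, was among these 7, at 326, 323 and 388 in DOX 3C and 516, 424 and 471 in DOX 3C UNC (0.59 ± 0.19, adjusted p = 0.216), and so was catalase, Cat, at 0.27 ± 0.08 (adjusted p = 0.177). The median of the list, which was also written with earlier results known, was 0.15.

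Tgfbr2 (ENSMUSG00000032440, chr9:116087695-116175363) encodes the type II receptor that binds TGF-β and activates the type I receptor, the kinase inhibited in 3C medium. It held 1611, 1691 and 1495 normalised counts in DOX and 1664, 1660 and 1732 in DOX UNC. It held 1736, 1506 and 1540 in DOX 3C and 2641, 2338 and 2434 in DOX 3C UNC. The first 3 groups overlapped, and all DOX 3C UNC libraries lay above the other 9. The interaction was 0.56 ± 0.09 (adjusted p = 0.023), from a change of 0.08 without and 0.63 ± 0.06 with 3C. The call was lost without DOX 1, DOX 2, DOX UNC 2, DOX 3C UNC 3, or number 2 or 3 of DOX 3C, with adjusted p between 0.0539 and 0.0795. Its promoter window is shown for the SMAD motif GTCTG (minus strand, chr9:116175364-116175613, 5′ to 3′ on the strand of the gene, RefSeq GRCm38.p6), with the match on the opposite strand in capitals.
Tgfbr2: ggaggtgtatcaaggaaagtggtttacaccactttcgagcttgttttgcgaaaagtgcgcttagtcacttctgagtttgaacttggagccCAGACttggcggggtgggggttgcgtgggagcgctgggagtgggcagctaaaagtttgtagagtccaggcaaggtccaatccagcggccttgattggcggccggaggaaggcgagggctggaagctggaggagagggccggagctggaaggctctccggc
This short motif is common, being in 42.2% of all windows on either strand and in 8 of the 14 windows of the 9 called genes with a window. The 8 belong to 5 genes (Gm2115, Plch1, Pou5f1, Rcan2 and Tgfbr2). The AP-1 motif TGANTCA was in 1 of these 14 windows, of Rcan2 (6.75% of all windows), and the TCF motif CTTTGAT in 1, of Plch1 (3.21%).

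Of 22 genes listed for TGF-β response, which include ligands, receptors and latency proteins, only Tgfbr2, a receptor, was called without the block. With the block 9 were called higher and 0 lower, and at an unadjusted p below 0.05 there were 11 and 0. The list median was 0.34 against 0.00 for all genes. UNC0638 raised 4 of the 22 in DOX alone (where 0.508% of all genes were called higher) and 15 in 3C (7.71% of all genes), and lowered none in either. Without UNC0638, 3C lowered 16 of the 22 and raised 1, where 24.7% of all genes were called in each direction. Tgfbr2 and Tgfbi were not called in that comparison (log2 changes of -0.0057 and -0.067, adjusted p = 0.952 and 0.516 in limma). Tgfbi, a secreted matrix protein named for its induction by TGF-β, had 2021, 1855 and 1602 normalised counts in DOX and 2555, 2511 and 2281 in DOX UNC, then 1923, 1630 and 1667 in DOX 3C and 3721, 3397 and 3382 in DOX 3C UNC. Its libraries separated in both media, and the interaction was 0.58 ± 0.11 (adjusted p = 0.0554, blocked 0.000201). Pmepa1, a feedback inhibitor of SMAD signalling, was at 719.7, 782 and 767 in DOX and 855, 983 and 891 in DOX UNC. It was at 89.0, 65.9 and 80.3 in DOX 3C and 147, 187 and 160.2 in DOX 3C UNC. All libraries with 3C lay below all without it, and the interaction was 0.80 ± 0.16 on the log2 scale (adjusted p = 0.0554, blocked 0.00528). Without DOX 3C 1, Tgfbr2, Tgfbi and Pmepa1 were all called (adjusted p = 0.0101, 0.016 and 0.016).

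No collagen was called in the interaction without the block, and with the block the calls among collagens were all higher. Of 19 fibrillar and associated collagens, 10 were called higher and 0 lower with the block, the same number at an unadjusted p below 0.05. The list median was 0.40 against 0.00 for all genes, with 18 of 19 above 0, against 8073 of all 16138 genes. UNC0638 raised 4 of the 19 in DOX alone (0.508% of all genes) and 15 in 3C (7.71%), with median changes of 0.32 and 0.62. Col1a1, which encodes the more abundant chain of type I collagen, held 20400, 21260 and 22530 normalised counts in DOX and 27550, 24260 and 29100 in DOX UNC. It held 11530, 8922 and 9449 in DOX 3C and 18150, 18520 and 19880 in DOX 3C UNC. UNC0638 libraries were higher in both media, and the interaction was 0.60 ± 0.12 (adjusted p = 0.0558, blocked 0.00165). Col6a2, a chain of the beaded filament collagen VI, was at 4898, 4590 and 4186 in DOX and 5118, 4323 and 4288 in DOX UNC, which overlapped, and at 3922, 3264 and 3533 in DOX 3C and 5507, 4905 and 5205 in DOX 3C UNC, which did not (0.54 ± 0.11, adjusted p = 0.0652, blocked 0.000207). Without DOX 3C 1, which had the highest Col1a1 level of its group, 5 of the 19 were called without the block, Col1a1 among them (log2 interaction 0.705, adjusted p = 0.0101).

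Of 29 mesenchymal matrix and surface genes, 11 were called higher and 1 lower with the block, 15 were higher and 0 lower at an unadjusted p below 0.05, and the median was 0.36. Prrx1, a homeobox factor of limb and other mesenchyme, held 5932, 6142 and 6381 normalised counts in DOX and 6078, 5866 and 5997 in DOX UNC. It held 5724, 5851 and 5705 in DOX 3C and 6930, 7162 and 7457 in DOX 3C UNC, where all libraries lay above the other 9. Its interaction of 0.36 ± 0.07 had an adjusted p of 0.0507 (blocked 0.00282). Thy1, a surface marker of fibroblasts that is lost early in reprogramming, had 2154, 2033 and 2289 in DOX, 2884, 2538 and 2931 in DOX UNC, 2067, 1673 and 2149 in DOX 3C and 3467, 3393 and 3809 in DOX 3C UNC. UNC0638 libraries were the higher ones in both media (0.50 ± 0.12, adjusted p = 0.0899, blocked 0.000666). Bgn, the matrix proteoglycan biglycan, had an interaction of 0.59 ± 0.14 (adjusted p = 0.0839, blocked 0.00263). The single lower call with the block was Postn, the matrix protein periostin, at -0.385 (unblocked adjusted p = 0.561, blocked 0.0286), which falls outside the naming rule and was chosen after its values were seen. Of 19 genes that modify and cross-link collagen, 4 were called higher and 0 lower with the block (median 0.25), among them Bmp1, which trims procollagen, at 0.34 ± 0.08, Lox, which cross-links collagen and elastin, at 0.68 ± 0.16, and Adamts2, a procollagen protease, at 0.53 ± 0.15 (adjusted p = 0.0946, 0.1 and 0.173).

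**Figure D3:**
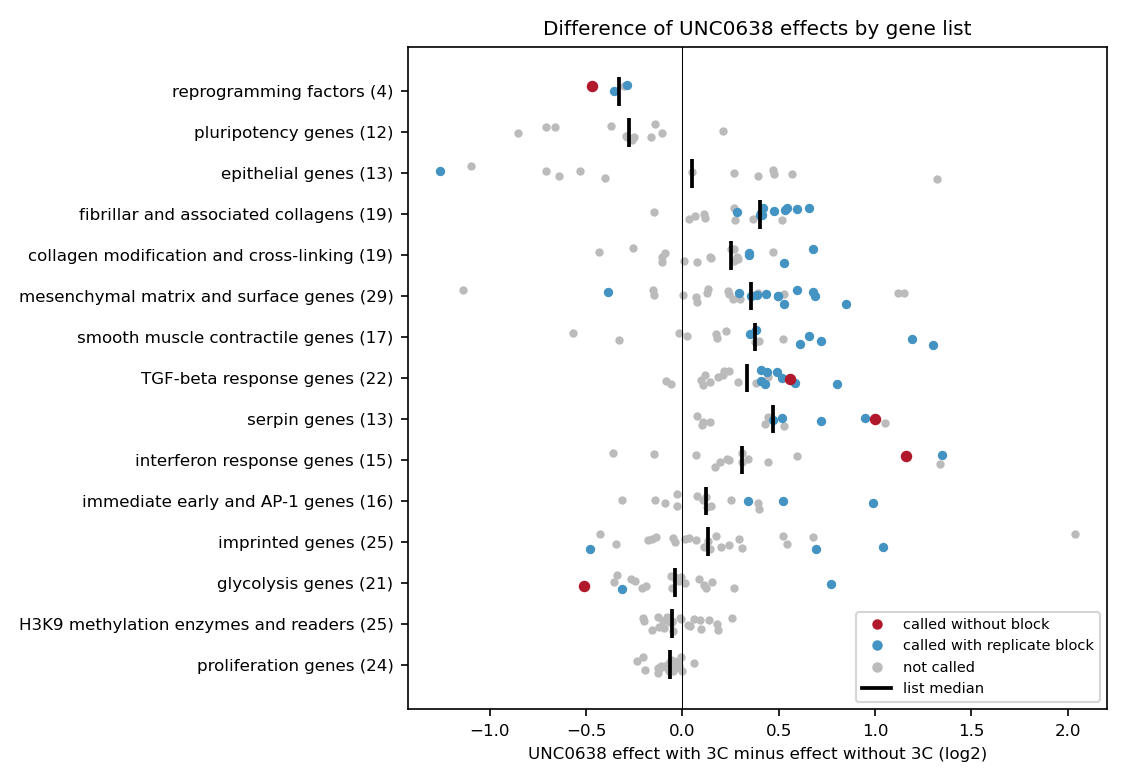
Interaction (x axis, log2) of each tested member of 15 gene lists, with the number of members in parentheses. Points are genes, red where called without the block, blue where called with it alone and grey otherwise, and black bars are list medians; collagens, smooth muscle, TGF-β and serpin genes lie mostly to the right of 0 and the reprogramming factors to the left, while all H3K9 enzymes lie within 0.3 of 0.

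Of 17 smooth muscle contractile genes, 7 were called higher and 0 lower with the block and the median was 0.38. Mylk, which encodes a kinase that activates myosin and so contraction, was at 89.5, 61.2 and 67.4 normalised counts in DOX and 178, 103 and 151 in DOX UNC. It was at 24.9, 19.2 and 24.7 in DOX 3C and 130.5, 88.5 and 125 in DOX 3C UNC. UNC0638 libraries were higher in each medium, the change being 0.96 ± 0.21 without and 2.26 ± 0.21 with 3C (1.30 ± 0.30, adjusted p = 0.0882, blocked 0.00179). Acta2, the smooth muscle actin, was at 34830, 40180 and 38970 in DOX and 43820, 53020 and 50240 in DOX UNC, against 5068, 6217 and 5657 in DOX 3C and 9835, 13190 and 11500 in DOX 3C UNC. Within each of the 4 groups the library numbered 1 had the lowest Acta2 value. Its blocked adjusted p was 1.82e-05 and its unblocked one 0.0686 (0.66 ± 0.14). Actg2, the enteric smooth muscle actin, also had its lowest value in the library numbered 1 of each group and an interaction of 0.72 ± 0.19 (adjusted p = 0.137, blocked 6.94e-06).

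For several of these genes the scale decided the direction. In normalised counts, UNC0638 added 11030 to Acta2 in DOX alone and 5860 in 3C, so the difference was -5172 although the log2 interaction was above 0. The same held for Lox, at 10550, 11260 and 12290 normalised counts in DOX, 13660, 15760 and 16040 in DOX UNC, 416, 310.3 and 384 in DOX 3C and 716, 687 and 976 in DOX 3C UNC (difference -3364). Col5a1 (difference -1507, log2 interaction 0.41 ± 0.09), Col1a2 (-4066, 0.41 ± 0.10), Actg2 (-2089), Bgn (-294) and Pmepa1 (-67.1) shared this form, while Col1a1 (3306), Tgfbi (1137), Thy1 (968) and Tgfbr2 (791) were above 0 on both scales. Of all genes, 562 (3.48%) were above 0 in log2 and below 0 in normalised counts. The number was 9 of 19 collagens, 9 of 22 TGF-β response genes and 8 of 17 smooth muscle genes, lists whose median 3C change without UNC0638 was -1.05, -1.27 and -1.45. Of the 413 genes called with the block, 26 changed sign between the scales (22 higher and 4 lower), and of the 10 called without it none did.

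**Figure D4:**
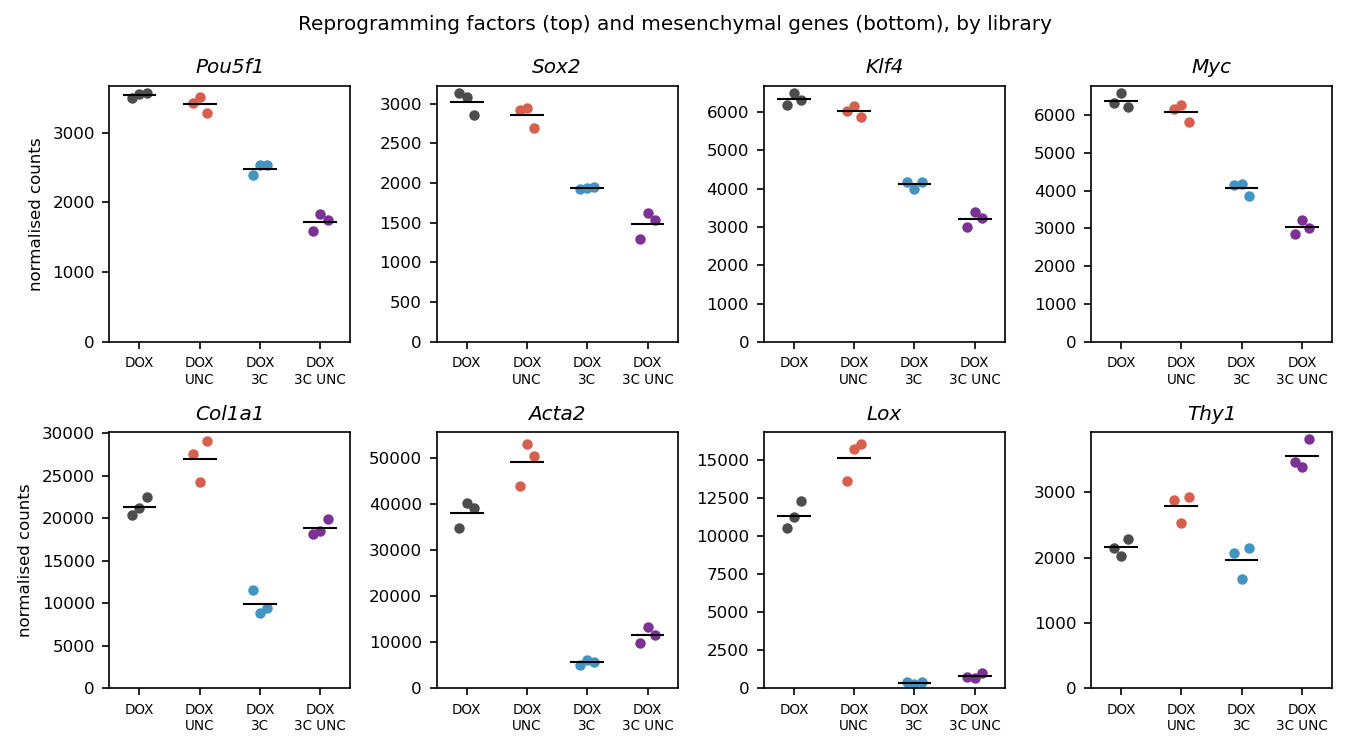
Normalised counts (linear axes from 0) of the 4 reprogramming factors (top) and of Col1a1, Acta2, Lox and Thy1 (bottom) in the 3 libraries of each group; points are libraries and lines group means. The factors are lowest in DOX 3C UNC, and Acta2 and Lox are low in both 3C groups, so that a larger fold with UNC0638 there is a smaller difference in counts.

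Pou5f1 (ENSMUSG00000024406, chr17:35506032-35510777), which encodes the reprogramming factor Oct4, fell with UNC0638 in 3C medium. It held 3499, 3556 and 3568 normalised counts in DOX and 3421, 3507 and 3286 in DOX UNC. It held 2384, 2539 and 2529 in DOX 3C and 1594, 1839 and 1739 in DOX 3C UNC. The 3C libraries were below all without 3C, and those with UNC0638 were the lowest of all. The change was -0.06 without and -0.53 ± 0.05 with 3C, an interaction of -0.47 ± 0.08 (adjusted p = 0.023); 7 of 12 fits lacking 1 library lost the call (without DOX 1, DOX 2, DOX 3, DOX UNC 2, DOX 3C UNC 3, or number 2 or 3 of DOX 3C, adjusted p = 0.0539 to 0.083). Myc was at 4140, 4185 and 3853 in DOX 3C and 2852, 3229 and 3013 in DOX 3C UNC (-0.36 ± 0.08, adjusted p = 0.0764, blocked 0.0043). Klf4 was at 4169, 3998 and 4168 and 2990, 3385 and 3241 in these groups (-0.29 ± 0.07, 0.117 and blocked 0.0233), and Sox2 at 1922, 1945 and 1949 and 1301, 1629 and 1531 (-0.30 ± 0.10, 0.211 and blocked 0.0678). UNC0638 lowered all 4 in 3C, where 3.94% of genes were called lower. In DOX alone the 4 changes with UNC0638 lay between -0.08 and -0.06. Reads of Pou5f1, Sox2 and Klf4 combine endogenous transcripts with those of the inducible allele, and reads of Myc do so in libraries of the OKSM allele only; these sources were not separated here. The 4 genes can share transgene transcripts and are not taken as independent observations.

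Of 12 pluripotency genes tested, none was called with or without the block or had an unadjusted p below 0.05 in limma. Of the 12, 11 were below 0, against 8065 of all 16138 genes, and the median was -0.28. In normalised counts 8 of the 12 were below 0 and 4 above, against 8097 below for all 16138 genes. UNC0638 lowered 4 of the 12 in 3C (3.94% of all genes) and raised 1 in DOX alone (0.508%), Gdf3. Gdf3, a TGF-β family ligand of pluripotent cells, was at 3.68, 3.60 and 4.39 normalised counts in DOX, 9.39, 12.1 and 11.6 in DOX UNC, 41.5, 31.8 and 30.1 in DOX 3C and 61.7, 42.4 and 58.6 in DOX 3C UNC (-0.66 ± 0.38 in log2, adjusted p = 0.552, against a difference of 12.6 in normalised counts). Of 13 epithelial genes, Dsp, the desmosomal plaque protein desmoplakin, was called lower with the block. Its libraries were at 78.5, 80.5 and 113 in DOX, 109, 138 and 107 in DOX UNC, 193, 239 and 344 in DOX 3C and 119, 126 and 172 in DOX 3C UNC. The ranges overlapped in DOX alone, and in 3C all UNC0638 libraries were lower. The UNC0638 change went from 0.39 without 3C to -0.87 with it (-1.26 ± 0.28, adjusted p = 0.0782, blocked 0.00179; 0.0342 without the block and without DOX 3C 1). Cdh1, the E-cadherin of epithelial junctions, was at 0.48 ± 0.30 (adjusted p = 0.594), with DOX 3C at 239.6, 120 and 234 and DOX 3C UNC at 234, 192 and 277. The epithelial median was 0.05, and it lay between -0.30 and 0.34 in the fits lacking 1 library. Epithelial genes summed to 1241 to 1582 normalised counts in DOX 3C and 1362 to 1739 in DOX 3C UNC.

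Plch1 and Pfkp had been raised by 3C and fell when UNC0638 was added to it. Plch1 (ENSMUSG00000036834, chr3:63696199-63899503) encodes a phospholipase C that makes the second messengers inositol trisphosphate and diacylglycerol. It was at 326, 329 and 310.4 normalised counts in DOX and 337, 388 and 335 in DOX UNC. It was at 440.1, 404 and 463 in DOX 3C and 261, 269 and 273 in DOX 3C UNC. The DOX 3C libraries were the highest and the DOX 3C UNC libraries the lowest of all 12. UNC0638 changed Plch1 by 0.13 without and -0.70 ± 0.08 with 3C (-0.83 ± 0.12, adjusted p = 0.0113), and the call was lost without DOX 2 (0.0528). The level in DOX 3C UNC was 0.562 times the 476 that the fold in DOX alone would have given.

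Rcan2 (ENSMUSG00000039601, chr17:43801352-44039516), a regulator of the calcium-dependent phosphatase calcineurin, went the other way. It was at 278, 305 and 302 normalised counts in DOX and 316, 315 and 279 in DOX UNC, which overlapped. It was at 119.8, 122 and 149.8 in DOX 3C and 236, 228 and 265 in DOX 3C UNC, which separated below the libraries without 3C. The interaction was 0.86 ± 0.15 (adjusted p = 0.0321), and it was lost without DOX 1, DOX 2, DOX 3, DOX UNC 2, DOX UNC 3, DOX 3C 2 or DOX 3C UNC 3 (adjusted p = 0.0539 to 0.101). Of 20 genes of phosphoinositide and calcium signalling, in a list written with earlier results known, Plch1 and Rcan2 were called in opposite directions. With the block 2 were higher and 3 lower, and the median was 0.01. Itpr1, an inositol trisphosphate receptor, was among the lower ones and had the opposite form, with 2127, 2068 and 2256 in DOX, 2549, 2723 and 2633 in DOX UNC, 1731, 1710 and 1733 in DOX 3C and 1665, 1726 and 1696 in DOX 3C UNC. It rose with UNC0638 in DOX alone (0.29 ± 0.05, adjusted p = 0.00913, in a comparison that called 0.607% of genes), was at -0.02 in 3C and had an interaction of -0.32 ± 0.07 (adjusted p = 0.0782, blocked 0.0138).

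Pfkp (ENSMUSG00000021196, chr13:6579874-6649060) encodes the platelet-type phosphofructokinase, which commits sugar to glycolysis. It held 1661, 1610 and 1622 normalised counts in DOX and 1752, 1712 and 1633 in DOX UNC. It held 4088, 4328 and 4180 in DOX 3C and 2867, 3291 and 3050 in DOX 3C UNC. With 3C, all libraries exceeded those without it, and UNC0638 lowered the level by 0.45 ± 0.05 on the log2 scale, against a change of 0.06 in DOX alone. The interaction was -0.51 ± 0.08 (adjusted p = 0.0196) and was not called without DOX 2 (0.0597), DOX 3C 2 (0.0672) or DOX 3C UNC 3 (0.0601). Of 21 glycolysis genes, in a list written with earlier results known, Pfkp was called. With the block 1 was higher and 2 lower, and the list median was -0.04. Hk2, a hexokinase, was at 4227, 4585 and 4277 in DOX 3C and 3061, 4029 and 3629 in DOX 3C UNC (-0.32 ± 0.10, adjusted p = 0.211, blocked 0.0489). Pfkfb4, which makes and breaks down an activator of phosphofructokinase, was at 91.3, 74.8 and 85.7 and 135, 114 and 144 and had an interaction of 0.77 ± 0.19 (adjusted p = 0.117, blocked 0.0263).

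Slc43a2 (ENSMUSG00000038178, chr11:75529915-75577575), a transporter of large neutral amino acids such as leucine, was the called gene with opposite changes. It held 261, 249 and 271 normalised counts in DOX and 184, 176 and 201 in DOX UNC. It held 655, 615 and 716 in DOX 3C and 735, 725 and 859 in DOX 3C UNC. UNC0638 libraries were all lower without 3C and all higher with it. The change of -0.48 ± 0.09 in DOX alone was called (adjusted p = 0.014), and the one of 0.22 ± 0.09 in 3C was not (adjusted p = 0.11, in a comparison that called 11.6% of genes). The interaction was 0.70 ± 0.12 (adjusted p = 0.0372) and was lost without DOX 1, DOX 2, DOX 3, DOX UNC 1, DOX UNC 2, DOX 3C 2 or DOX 3C UNC 3 (adjusted p = 0.0508 to 0.0972). Of 18 amino acid transporters, listed with earlier results known, 2 were higher and 2 lower with the block (median -0.04). Slc6a15, a transporter of branched-chain amino acids, was at 43.9, 74.8 and 50.2 in DOX 3C and 18.6, 30.3 and 27.6 in DOX 3C UNC (-1.01 ± 0.29, adjusted p = 0.176, blocked 0.00563), and Slc43a3, a purine base transporter of the family of Slc43a2, at 0.39 ± 0.10 (adjusted p = 0.143, blocked 0.0184).

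Gm2115 (ENSMUSG00000097789, chr7:84528974-84581238), a predicted gene, held 680.5, 788 and 785 normalised counts in DOX and 814, 854 and 998 in DOX UNC. It held 297, 246 and 309 in DOX 3C and 635, 554 and 709 in DOX 3C UNC. UNC0638 libraries were above their controls in both media. The change was 0.24 ± 0.10 without 3C (adjusted p = 0.469) and 1.15 ± 0.10 with it, and the interaction 0.91 ± 0.15 (adjusted p = 0.023). It was lost without DOX 2, DOX 3, DOX UNC 2, DOX 3C 2 or DOX 3C UNC 3 (adjusted p = 0.0627 to 0.0786).

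Ly6a, which encodes the surface antigen Sca-1, missed the threshold narrowly. It was at 477, 508 and 486 normalised counts in DOX and 1048, 1207 and 1462 in DOX UNC. It was at 1267, 1092 and 1303 in DOX 3C and 4882, 4811 and 5246 in DOX 3C UNC. UNC0638 raised it in each medium, by 1.32 ± 0.09 and 2.03 ± 0.09, with an interaction of 0.71 ± 0.13 (adjusted p = 0.0507, blocked 0.000686; 0.0342 without the block and without DOX 3C 1). The level in DOX 3C UNC was 1.63 times the 3044 that the product of the separate folds would give.

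Of 13 serpin genes, which encode serine protease inhibitors, all had an interaction above 0, against 8073 of all 16138 genes, with a median of 0.47. Serpinb9, listed with earlier results known, was called, and 5 were higher and 0 lower with the block and at an unadjusted p below 0.05. Serpinf1, the secreted anti-angiogenic factor PEDF, was at 2235, 2104 and 2029 normalised counts in DOX, 2802, 2667 and 2978 in DOX UNC, 1905, 1560 and 1633 in DOX 3C and 3089, 3066 and 3160 in DOX 3C UNC. UNC0638 libraries separated upward in both media (0.47 ± 0.09, adjusted p = 0.0652, blocked 0.00264; 0.0101 without the block and without DOX 3C 1). Serpinb1a, an inhibitor of neutrophil proteases, was at 123, 87.4 and 79.5 in DOX 3C and 276, 150.3 and 209 in DOX 3C UNC (0.95 ± 0.29, adjusted p = 0.191, blocked 0.0234).

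Among signalling genes, 3 of 16 immediate early and AP-1 genes were higher and 0 lower with the block (median 0.12). Egr1, a zinc finger factor induced within minutes of growth signals, was at 798, 847 and 665 normalised counts in DOX and 740.4, 453 and 498 in DOX UNC. It was at 329, 242 and 256 in DOX 3C and 471, 321 and 392 in DOX 3C UNC. The ranges with and without UNC0638 overlapped in both media, and the changes of -0.48 and 0.51 gave an interaction of 0.99 ± 0.23 (adjusted p = 0.0899, blocked 0.000721). Junb and Fosl2, both subunits of AP-1, were at 0.34 ± 0.08 and 0.52 ± 0.16 (adjusted p = 0.102 and 0.183, blocked 0.0213 and 0.0296). Of 17 Wnt target and feedback genes, 3 were higher and 0 lower with the block and the median was -0.05; they were the Wnt inhibitors Apcdd1 (0.58 ± 0.15, adjusted p = 0.122), Nkd2 (0.86 ± 0.23, 0.143) and Sfrp1 (0.43 ± 0.19, 0.4). Of 18 cytokine, chemokine and NF-κB target genes, 2 were higher with the block (median 0.21). Ccl2, a chemokine for monocytes, was at 433, 490.2 and 452 in DOX 3C and 651, 758 and 643 in DOX 3C UNC (0.59 ± 0.12, adjusted p = 0.0652, blocked 0.000721), and Csf1, a macrophage growth factor, had an interaction of 0.31 ± 0.09 (adjusted p = 0.159, blocked 0.0264). Macrophage markers summed to 142.2 to 542.8 normalised counts in DOX, 137.5 to 514 in DOX UNC, 187.4 to 553.9 in DOX 3C and 222.5 to 590.3 in DOX 3C UNC, lowest in the library numbered 1 of each group. None of the 12 tested had an unadjusted p below 0.05 in limma, and their part in these results was not tested. Of 13 MHC class I and antigen presentation genes, B2m, the light chain of MHC class I, was called higher with the block (0.30 ± 0.07, adjusted p = 0.1, blocked 0.015), and the median was 0.05.

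The enzymes that UNC0638 inhibits were not called. Ehmt1 was at 1912, 1907 and 1862 normalised counts in DOX 3C and 1775, 1846 and 1647 in DOX 3C UNC (-0.13 ± 0.07, adjusted p = 0.553), and Ehmt2 at 4147, 4353 and 4493 and 4033, 4142 and 4291 (-0.05 ± 0.07, adjusted p = 0.846). Of 25 H3K9 methylation enzymes and readers, none was called with or without the block, 1 was higher and 1 lower at an unadjusted p below 0.05 in limma, and all lay between -0.21 and 0.26. Of 10 enzymes of DNA methylation and oxidation none was called either, with 2 lower at an unadjusted p below 0.05. These were Uhrf1, which guides maintenance methylation (-0.20 ± 0.07, adjusted p = 0.278), and Dnmt1, the maintenance methyltransferase (-0.15 ± 0.07, adjusted p = 0.419). Uhrf1 is in both lists and is also the lower gene counted among the H3K9 enzymes and readers. Of 24 proliferation genes, 23 were below 0, against 8065 of all 16138 genes, with a median of -0.06. In normalised counts 19 of the 24 were below 0 and 5 above. Of these 24, 0 were called and 3 were lower at an unadjusted p below 0.05: the mitotic kinases Aurkb (-0.23 ± 0.08) and Aurka (-0.20 ± 0.08) and the replicative helicase subunit Mcm6 (-0.21 ± 0.08), with adjusted p of 0.281, 0.367 and 0.297. Of 18 cell cycle inhibitors and p53 targets, Cdkn2b, which encodes the TGF-β-inducible inhibitor p15, was called higher with the block (0.52 ± 0.12, adjusted p = 0.0782, blocked 0.00327), at 514, 418 and 485 in DOX 3C and 798, 725 and 803 in DOX 3C UNC. Of 14 NRF2 and aryl hydrocarbon receptor targets, 3 were higher with the block, among them Hmox1, the haem-degrading oxygenase (0.48 ± 0.12, adjusted p = 0.112), and Cyp1b1, a cytochrome P450 (0.40 ± 0.17, 0.372), against a median of 0.05.

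The largest interactions among genes called with the block, beside those above, were found in genes of varied function. Prlhr, a receptor for prolactin-releasing peptide, was at 1.23, 0 and 0 normalised counts in DOX and at 0 in all DOX UNC libraries. It was at 13.1, 11.1 and 11.6 in DOX 3C and 69.9, 67.9 and 80.7 in DOX 3C UNC, where it rose with UNC0638 by 2.51 ± 0.44 (adjusted p = 0.00113). With no reads in DOX UNC its fitted interaction depends on the pseudocount and is not given as a fold. In limma the adjusted p of that interaction was 0.0731 (blocked 0.0203). Prlhr was not called in edgeR, without the block (0.383) or with it (0.289). Abi3bp, a matrix-associated protein, was at 103, 70.3 and 74.1 in DOX 3C and 282, 192 and 184 in DOX 3C UNC (1.64 ± 0.39, adjusted p = 0.0903, blocked 0.00854). Il2rg, the common γ chain of cytokine receptors, was at 4.75, 11.8 and 10.8 and 36.1, 33.9 and 35.4 in these groups, against 41.7, 42.0 and 51.2 in DOX and 64.9, 54.8 and 63.4 in DOX UNC (1.49 ± 0.38, adjusted p = 0.117, blocked 0.0281). All 3 genes had DOX 3C UNC libraries above all DOX 3C libraries. Syt13, a synaptotagmin, went from 96.1, 109.6 and 118 to 365, 390.3 and 443 (1.33 ± 0.32), Cpxm1, a secreted carboxypeptidase-like protein, from 81.9, 65.9 and 81.8 to 238, 164 and 178 (1.29 ± 0.32) and Gbp7, an interferon-inducible GTPase, from 38.0, 27.4 and 28.6 to 135, 97.0 and 114 (1.23 ± 0.29), with adjusted p of 0.0982, 0.102 and 0.0899.

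In the other direction, Nt5e, the ectoenzyme CD73 that makes adenosine, was at 324, 297 and 211 normalised counts in DOX and 324, 304 and 302 in DOX UNC. It was at 275, 301 and 269 in DOX 3C and 188, 167 and 127 in DOX 3C UNC, the lowest of the 12 libraries (-1.01 ± 0.21, adjusted p = 0.0652, blocked 0.000799). Npr3, the clearance receptor of natriuretic peptides, was at 186, 107 and 148 in DOX and 202, 169.9 and 219.6 in DOX UNC, then at 141, 114 and 118 in DOX 3C and 100.2, 70.3 and 74.0 in DOX 3C UNC (-1.06 ± 0.26, adjusted p = 0.0998, blocked 0.00263). Fras1, a basement membrane protein, and Cdo1, which oxidises cysteine, were lowered by 3C (-1.40 and -2.03) and fell further with UNC0638 in it (-1.18 ± 0.12 and -0.96 ± 0.13). Their interactions were -0.82 ± 0.18 and -0.73 ± 0.18 (adjusted p = 0.0735 and 0.117). In normalised counts the direction turned, with differences of 15.7 and 29.4, from -203 and -165 in DOX alone and -187 and -135 in 3C. Epop, a chromatin protein that binds Polycomb repressive complex 2, was at 519.6, 584 and 526 in DOX 3C and 259.8, 348 and 390.1 in DOX 3C UNC (-0.70 ± 0.17, adjusted p = 0.0961). Igsf9b, an adhesion protein of inhibitory synapses, was at 1303, 1387 and 1411 and 783, 960.1 and 866 (-0.66 ± 0.13, adjusted p = 0.0558), and Mtfr2, a mitochondrial fission regulator, at 123, 126 and 91.9 and 62.9, 60.6 and 82.9 (-0.94 ± 0.22, adjusted p = 0.0899). Gm49204, a predicted gene of low level, had an interaction of -1.36 ± 0.30 (adjusted p = 0.0782, blocked 0.0244).

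Markers of other cell types gave few calls. Of 7 neural genes, the neurofilament gene Nefl was called lower with the block, at 418, 669.5 and 537 normalised counts in DOX 3C and 317, 476 and 318 in DOX 3C UNC (-0.76 ± 0.24, adjusted p = 0.206, blocked 0.0301). Neural markers summed to 2996 to 3174 in DOX, 3958 to 4542 in DOX UNC, 1889 to 2662 in DOX 3C and 2142 to 2788 in DOX 3C UNC. None of 4 endothelial, 5 adipocyte and 2 keratinocyte markers tested was called with or without the block or had an unadjusted p below 0.05 in limma. Endothelial sums were 1782 to 1920 in DOX 3C and 1443 to 1919 in DOX 3C UNC, and adipocyte sums 1027 to 1206 and 1347 to 1549. Of 5 erythroid genes, Alas2, the haem synthesis enzyme of red cells, was lower at an unadjusted p below 0.05 (-1.68 ± 0.70, adjusted p = 0.369), at 58.1, 25.2 and 28.6 in DOX 3C, the library numbered 1 being the highest, and 14.0, 18.2 and 13.3 in DOX 3C UNC. Without DOX 3C 1, Alas2 was at -1.32 (adjusted p = 0.517), no erythroid gene was lower at an unadjusted p below 0.05, and the list median was 0.339 against -0.795 with all 12 libraries. The globin gene Hbb-bs was then at 0.879 (adjusted p = 0.297), against -0.5 with all 12 libraries. Without DOX 3C 1 it was called higher with the block (0.0393), an entry named after its values were seen. Its reads can be shared with the near-identical Hbb-bt.

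The direction of 3C itself differed between the sets of genes called with the block. Of the 309 higher genes, 155 were lowered and 63 raised by 3C without UNC0638, and of the 104 lower genes 54 were raised and 24 lowered, where 24.7% of all genes were called in each direction. DOX 3C enters both the 3C change and the interaction, with opposite signs, so these counts are a description and not evidence of a relation.

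**Figure D5:**
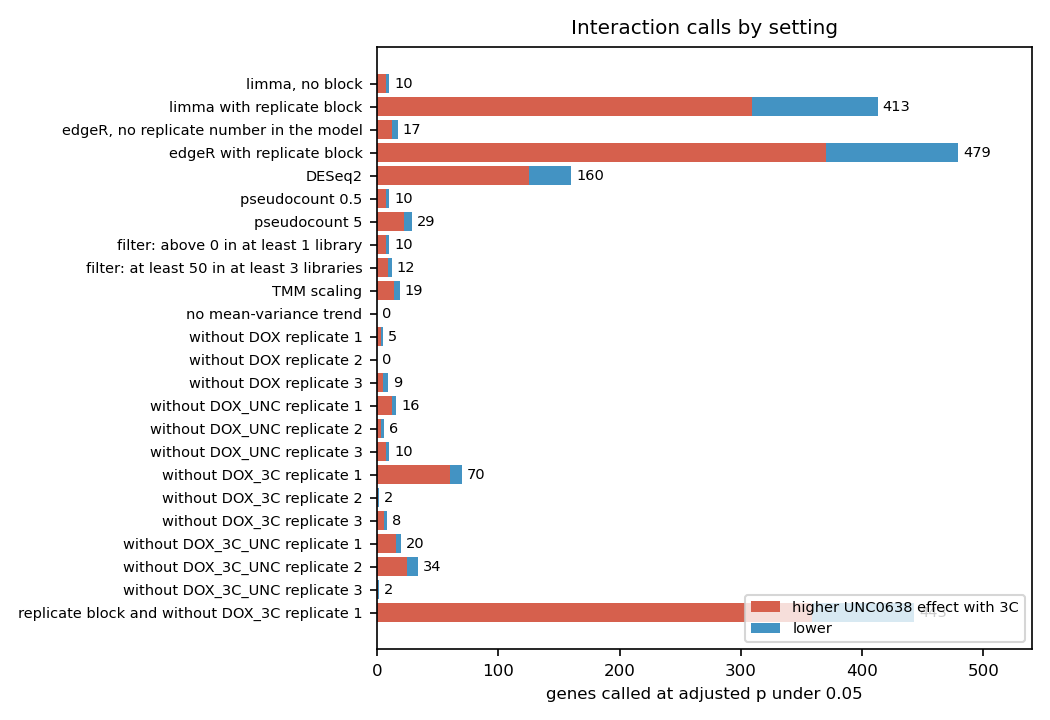
Number of genes called in the interaction (x axis, adjusted p below 0.05) under each analysis, with red for higher and blue for lower UNC0638 effects in 3C. The fits with a replicate block give 413 to 479 calls, DESeq2 160, and the fits without block that lack 1 library 0 to 70.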

How the data were processed

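The 12 libraries were made from total RNA depleted of ribosomal RNA with a stranded kit, per the labels' protocols. TopHat2 2.1.0, SAMtools 1.8, HTSeq 0.5.4p3 and DESeq are named with the mm10 genome in the submitters' processing notes. The deposited values are a signal: read counts per gene that the authors divided by 1 factor per library, and 100% of values were whole reads within 0.01 read once the step of each library was taken out. The table's 2 columns that matched no sample listed here were not used.

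From these, log2(value + 1) was tested with limma 3.58.1 (empirical Bayes with a mean-variance trend, R 4.3.3) in 1 fit of 12 libraries, for the 16138 of 54109 genes that reached 10 in 3 or more libraries, with Benjamini-Hochberg adjustment over all of them. Alternatives were a block for the replicate number, edgeR 4.0.16 and DESeq2 1.42.0 on the recovered reads, other pseudocounts, filters and scaling, no trend, and leaving out each library. The fit without the block was tested on simulated data, drawn with nothing shared between libraries of equal number. The fit with the block was not tested in this way. Symbols were found for 54042 IDs by gene ID, and gene positions came from RefSeq.

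The contrast, 31 gene lists and rules were chosen with earlier results of these data known. Genes were named by rule: those called; the 10 largest interactions each way among genes called with the block, with an unadjusted p below 0.001 and a mean of at least 20; from each list, the 3 members of lowest p; and 10 fixed genes. Of the 109 genes so chosen, those with low or unremarkable values are given by list counts. Replicate libraries differed by more than sampling noise.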

Additional observations from a re-analysis of the deposited data

Results flagged for a closer look

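The UNC0638 effect differed between the media, by limma's test of the difference itself, for the 10 genes called. The effect with 3C minus the effect without it, in log2 units, was 1.16 for Lgals9, 1.00 for Serpinb9, 1.26 for Xdh, 0.914 for Gm2115, 0.86 for Rcan2, 0.698 for Slc43a2 and 0.556 for Tgfbr2. It was -0.83 for Plch1, -0.512 for Pfkp and -0.472 for Pou5f1. Their adjusted p-values lay between 0.0113 and 0.0372, each gene is described with its libraries in the text above, and the cause of the differences was not tested.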

How the results depend on the processing

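The 10 calls became 413 with the replicate block in limma, 17 in edgeR, 479 in edgeR with the replicate block, 160 in DESeq2, 29 with a pseudocount of 5, 19 with TMM scaling and 0 in limma without the mean-variance trend (1637 genes at an unadjusted p below 0.05); the causes were not tested. Leaving out 1 library gave 0 to 70 calls, the extremes being without DOX 2 (1665 genes at an unadjusted p below 0.05) and without DOX 3C 1. The block without DOX 3C 1, an alternative chosen after seeing the data, gave 443. With a pseudocount of 0.5, no filter above 0 (31642 genes tested) and a minimum of 50 (12457 tested) the counts were 10, 10 and 12. Higher calls were 70% of the total, 74.8% with the block, 77.2% in edgeR with the block and 78.1% in DESeq2, and TMM scaling moved the median of all genes to 0.01. Of the 109 named genes, 57 gained a call with the block and none lost one. Up to 10 genes each way were named because the block called them, so part of this gain was fixed in advance. The call of Xdh was lost in edgeR without the block. Among the 109, direction changed for 2 uncalled genes, Hbb-bt (0.577 without DOX 3C 1, and -1.53 at the lowest, without DOX 3C 2) and Cd36 (-0.136 without DOX 3, and 0.703 at the highest, without DOX 2). Hbb-bs, which is not among the 109, also changed direction without DOX 3C 1.

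On the pairing, deviations from group means correlated between libraries of the same number at 0.0595 to 0.223, over 0.1 for 15 of 18 pairs. The other 36 pairs were at -0.194 to -0.0103. Deviations cancel within a group, so positive values for equal numbers force negative ones on balance elsewhere. The negative range is therefore not a separate observation. All 12 libraries correlated best with their own number in every other group. This is a hint from the data that the numbers mark something shared; the labels do not say so. Depth of 10616764 to 20211641 reads limits genes under about 10 normalised counts, which were not tested.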

Other observations

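Imprinted genes, expressed from 1 parental copy, gave 2 higher and 1 lower call with the block among 25 tested, and 6 higher and 1 lower at an unadjusted p below 0.05; the median was 0.13. Rian, a maternally expressed long non-coding RNA, was at 2189, 1914 and 2132 normalised counts in DOX, 2197, 1864 and 2022 in DOX UNC, 1075, 905 and 1133 in DOX 3C and 1845, 1406 and 1668 in DOX 3C UNC. Its interaction was 0.69 ± 0.13 (adjusted p = 0.0554 in limma, blocked 4.07e-05). Meg3 and Mirg, non-coding RNAs of the same cluster, were at 0.676 and 0.544 (adjusted p = 0.442 and 0.473), and Dlk1, the paternally expressed gene of that cluster, at 0.144 (0.922). Peg10, a gene derived from a retrotransposon, was at 195, 175 and 231 in DOX and 158, 127 and 173 in DOX UNC, then at 679.8, 558 and 782 in DOX 3C and 959.9, 927 and 1289 in DOX 3C UNC (1.04 ± 0.21, adjusted p = 0.0558, blocked 1.82e-05). Sgce, its neighbour, was at 0.521 (adjusted p = 0.332). The lower call with the block was Zdbf2, at -0.483 (adjusted p = 0.362, blocked 0.027). Rian and Peg10 were both called without the block when DOX 3C 1 was left out. Meg3, Mirg, Dlk1, Sgce and Zdbf2 were chosen after their values were seen.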
